A study of Mus musculus with 12 samples.

Results

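The dystrophin-glycoprotein complex and its matrix ligand laminin alpha 2 were followed in the hippocampus of 4-month-old male mice through 9 genes of the 24736 symbols in the total RNA table: Dag1, Dmd, Utrn, Dtna, Dtnb, Sntb1, Sgce, Sgcb and Lama2. Dag1 was chosen because it is strongly lower in APP/PS1 mice, so its difference between genotypes is described here without a test, and the other 8 were chosen as genes of the same complex. Counts over all genes or all members include Dag1 and are no support for its difference. The 9 were picked with results of this comparison known. The study set 3 mice carrying the APPswe and PSEN1dE9 transgenes (APP/PS1) against 3 wild-type (WT) littermates, and each of the 6 total RNA libraries was taken to come from 1 mouse. The sources used here do not give the promoter of the transgenes or the strain. Small RNA gave 6 further columns of mature miRNA counts, 3 per genotype. Replicate numbers, as labelled, are 1, 2 and 4 for WT and 1, 2 and 3 for APP/PS1.

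Dystroglycan, the product of Dag1, is cut into an alpha part, which sits outside the cell and binds laminins, agrin, perlecan and neurexins through sugar chains, and a beta part, which spans the membrane. Inside the cell the beta part binds dystrophin or its relative utrophin, and these hold dystrobrevins and syntrophins and reach the actin cytoskeleton. Sarcoglycans form a separate membrane subcomplex beside dystroglycan. In brain the complex is known from the perivascular endfeet of astrocytes, where it anchors the water channel aquaporin-4, and from inhibitory synapses on pyramidal cells.

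Dag1 (chr9:108204861-108263977, mm10) had 21407, 20289 and 23007 estimated counts in WT replicates 1, 2 and 4, and 2907, 2150 and 2629 in APP/PS1 replicates 1, 2 and 3. In CPM, the estimated counts scaled by the TMM-adjusted size of each library, Dag1 stood at 176, 160 and 156 CPM in the WT libraries and at 24.5, 15.9 and 19.2 CPM in the APP/PS1 libraries. All 3 APP/PS1 libraries were low and the groups were far apart: the lowest WT value was 6.37 times the highest APP/PS1 value. Group means were 164 ± 10.5 CPM in WT and 19.9 ± 4.35 CPM in APP/PS1 (SD, n = 3 each), giving a ratio of 8.25 and a log2 fold change of -3.04 (SE 0.17). Of 14626 tested genes with a mean of at least 1 CPM, 2 had a lowest WT value at least 2 times the highest APP/PS1 value. They were Dag1 and the alpha-globin gene Hba-a2. Without the floor of 1 CPM, 15 tested genes had such a gap. By lowest log2 fold change Dag1 had rank 3 among the 14626. Dag1 was chosen for these values, so its place in either ordering is no support for its difference. In bulk tissue, fewer cells that express a gene and less RNA per cell cannot be told apart. The deposited values are per gene, so transcript forms of Dag1 were not analysed here.

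**Figure D1:**
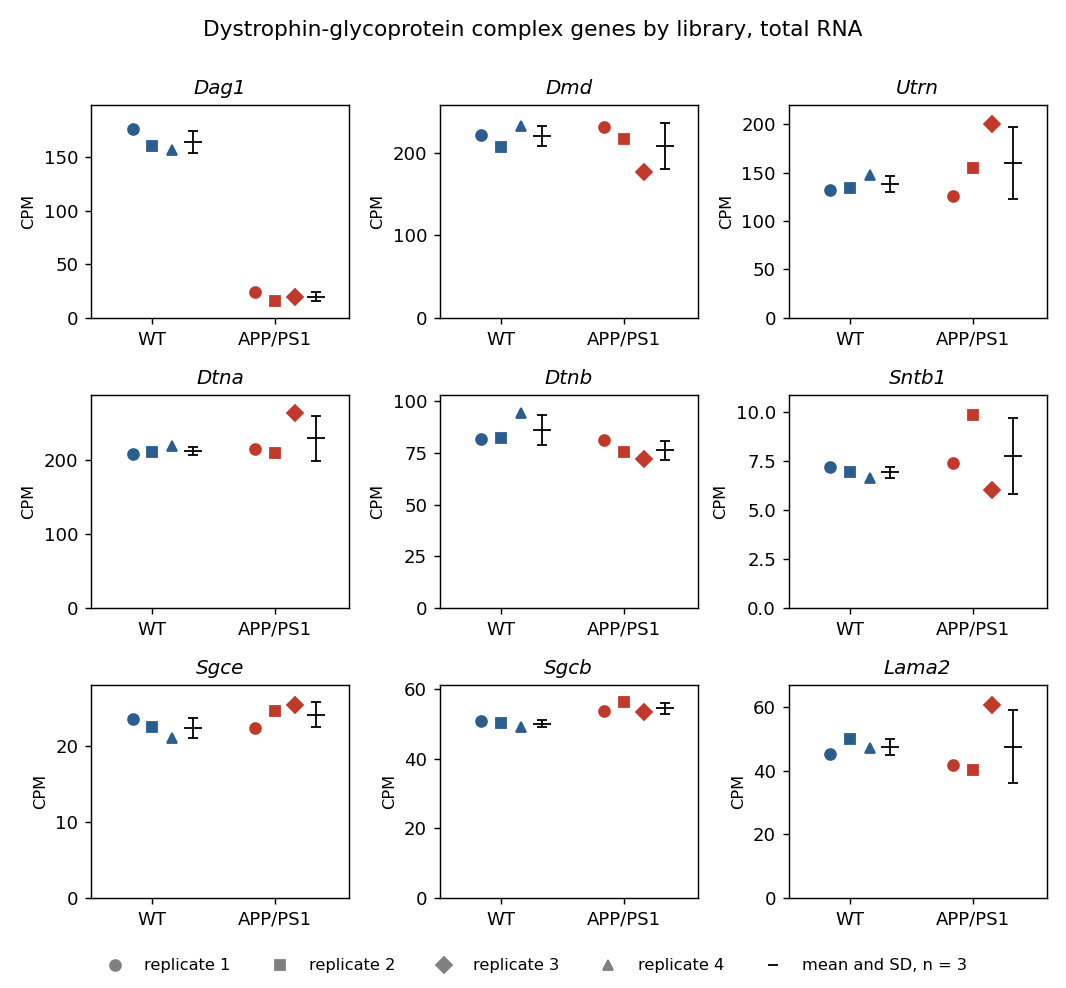
CPM of the 9 genes in each total RNA library (linear axes from 0, blue WT, red APP/PS1, marker shape gives the replicate number, bars give mean and SD of 3 libraries). Dag1 is the gene whose APP/PS1 libraries (15.9 to 24.5 CPM) lie far below its WT libraries (156 to 176 CPM), while APP/PS1 replicate 3 is high for Utrn, Dtna and Lama2 and low for Dmd.

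The bases before the Dag1 start are shown because Dag1 is the member that differs, beside those of Sgcb, the member with the least spread between WT libraries. Each is the 250 bases before a RefSeq start on GRCm38.p6, read 5′ to 3′ on the gene's strand, and capitals mark the GC box letters GGGCGG or their reverse complement CCGCCC.
Dag1 (chr9:108263959-108264208, minus strand): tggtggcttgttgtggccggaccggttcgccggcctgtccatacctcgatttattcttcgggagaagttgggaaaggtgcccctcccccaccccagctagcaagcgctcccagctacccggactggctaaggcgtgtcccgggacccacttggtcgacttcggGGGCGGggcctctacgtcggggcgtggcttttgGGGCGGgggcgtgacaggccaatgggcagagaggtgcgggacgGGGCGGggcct
Sgcb (chr5:73647738-73647987, minus strand): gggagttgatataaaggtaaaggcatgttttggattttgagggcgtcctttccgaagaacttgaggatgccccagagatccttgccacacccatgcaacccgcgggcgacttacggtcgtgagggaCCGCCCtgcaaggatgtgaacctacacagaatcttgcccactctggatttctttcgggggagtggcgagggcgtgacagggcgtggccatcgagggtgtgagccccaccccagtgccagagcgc
The Dag1 stretch holds 3 GC boxes, 1 CCAAT box (CCAAT, either strand) and 0 TATA boxes (TATAAA, either strand), and the Sgcb stretch holds 1 GC box, 0 CCAAT boxes and 1 TATA box. Of all 32851 RefSeq windows of this length, 32.7% hold a GC box, 33.8% a CCAAT box and 12.4% a TATA box. Among the 9 genes, 6 have such windows, 11 in all. A GC box occurs in 7 of these 11, in windows of Dag1, Dmd, Dtnb and Sgcb. Some windows of Dag1 and of Dtnb overlap, so the same box can be counted in more than 1 window. The second Dag1 window, which overlaps the first, was 74.8% G and C against 67.6% for the one shown and a median of 52.4% over all windows.

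All 6 total RNA libraries held transcripts of excitatory neurons, and 1 library stood apart. Slc17a7, the vesicular glutamate transporter of excitatory neurons, ranged from 576 to 915 CPM and Neurod6 from 123 to 262 CPM, both lowest in APP/PS1 replicate 3. The 6 pyramidal neuron markers summed to 6150 to 7480 CPM in 5 libraries and to 3468 CPM in APP/PS1 replicate 3. Summed over 6 cerebellar markers, that library had 2040 CPM against 42.4 to 54.5 CPM in the other 5, with Cbln3, a granule cell gene, at 612 CPM against 0.31 to 0.87 CPM. Values of each member are therefore given with and without APP/PS1 replicate 3. The 6 choroid plexus markers summed to 3904 CPM in APP/PS1 replicate 2 and to 1444 to 2347 CPM in the other 5 libraries, and 4 of the 6 markers had an unadjusted p under 0.05 in edgeR, each higher in APP/PS1, where 3.42% of all genes tested had such a p in either direction. Their part in the results below was not tested. The Dag1 log2 fold change was -3.02 (SE 0.20) without APP/PS1 replicate 3, about as large as with it. For 11 marker lists, of astrocytes, neurons, glia, vessels, meninges, choroid plexus, muscle and cerebellum, the summed level overlapped between genotypes in all 11. Astrocyte markers, for example, summed to 6353 to 7890 CPM in APP/PS1 and to 7568 to 8359 CPM in WT. For choroid plexus the overlap rested on APP/PS1 replicate 1, at 1734.7 CPM against 1750.5 CPM in WT replicate 2.

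Dystrophin and utrophin, the large cytoplasmic proteins that bind the beta part of dystroglycan, did not share the low values of Dag1. Dmd, the dystrophin gene (chrX:82814664-85205050), stood at 221, 208 and 233 CPM in WT replicates 1, 2 and 4 and at 231, 217 and 177 CPM in APP/PS1 replicates 1, 2 and 3. The groups overlapped and the lowest value was that of APP/PS1 replicate 3. The log2 fold change of Dmd was -0.08 (SE 0.12), or 0.02 (SE 0.07) without that library. Utrn, the utrophin gene (chr10:12382187-12869888), stood at 132, 135 and 148 CPM in WT and at 125, 155 and 199.8 CPM in APP/PS1. Here APP/PS1 replicate 3 was the highest library. The log2 fold change of Utrn was 0.21 (SE 0.17), or 0.02 (SE 0.10) without it. The ratio of Utrn to Dmd counts within a library lay between 0.60 and 0.65 in WT and was 0.54, 0.71 and 1.13 in APP/PS1 replicates 1, 2 and 3.

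The dystrobrevins and the syntrophin, adaptors bound to dystrophin, were measured through 3 genes. Dtna, encoding alpha-dystrobrevin (chr18:23310006-23659719), stood at 208, 210 and 218 CPM in WT replicates 1, 2 and 4 and at 215, 209 and 263 CPM in APP/PS1 replicates 1, 2 and 3. APP/PS1 replicate 3 was again the highest, and the other 2 APP/PS1 libraries lay inside the WT range. Its log2 fold change was 0.11 (SE 0.11), or -0.01 (SE 0.06) without that library. Dtnb, encoding beta-dystrobrevin, the form known from neurons (chr12:3572372-3785486), stood at 81.8, 82.1 and 94.4 CPM in WT and at 81.2, 75.7 and 72.3 CPM in APP/PS1. All APP/PS1 values lay below all WT values, by a margin of 1.01 times, with WT replicate 4 highest. Its log2 fold change was -0.17 (SE 0.09), and -0.14 (SE 0.09) without APP/PS1 replicate 3. Counts of Dtna over those of Dtnb, a ratio that needs no scaling between libraries, were 2.54, 2.56 and 2.31 in WT and 2.64, 2.76 and 3.64 in APP/PS1. This ratio did not overlap between genotypes, and its highest value was that of APP/PS1 replicate 3. Dtnb alone did not overlap either, and 10.4% of all genes tested did not. The share of gene pairs whose ratio does not overlap was not computed. Sntb1, encoding beta-1 syntrophin (chr15:55636388-55907302), stood at 7.19, 6.95 and 6.64 CPM in WT and at 7.39, 9.88 and 6.05 CPM in APP/PS1. The APP/PS1 libraries held both the highest and the lowest value. The Sntb1 log2 fold change was 0.17 (SE 0.19), or 0.31 (SE 0.15) without APP/PS1 replicate 3.

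The sarcoglycans, the membrane subcomplex beside dystroglycan, had small positive log2 fold changes. Sgce, encoding epsilon-sarcoglycan, a gene expressed from the paternal copy and mutated in human myoclonus-dystonia (chr6:4674350-4747204), stood at 23.6, 22.5 and 21.1 CPM in WT replicates 1, 2 and 4 and at 22.3, 24.7 and 25.4 CPM in APP/PS1 replicates 1, 2 and 3. The groups overlapped, and the log2 fold change was 0.11 (SE 0.09), or 0.07 (SE 0.09) without APP/PS1 replicate 3. Sgcb, encoding beta-sarcoglycan, a core subunit (chr5:73632749-73647737), stood at 50.8, 50.2 and 49.0 CPM in WT and at 53.7, 56.2 and 53.2 CPM in APP/PS1. Its genotypes did not overlap, the lowest APP/PS1 value being 1.05 times the highest WT value. The SD was 1.62 CPM over the APP/PS1 and 0.91 CPM over the WT libraries (n = 3 each), and the log2 fold change was 0.12 (SE 0.07), or 0.13 (SE 0.07) without APP/PS1 replicate 3.

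Laminin alpha 2, encoded by Lama2 (chr10:26981285-27617191), is the matrix ligand of dystroglycan whose loss causes a congenital muscular dystrophy. Lama2 stood at 45.1, 49.9 and 47.2 CPM in WT replicates 1, 2 and 4 and at 41.7, 40.1 and 60.7 CPM in APP/PS1 replicates 1, 2 and 3. Both APP/PS1 libraries without high cerebellar markers lay below WT, and the library with them lay above. The mean of Lama2 was 47.5 ± 11.4 CPM over the APP/PS1 libraries and 47.4 ± 2.41 CPM over the WT libraries (SD, n = 3 each). The log2 fold change was 0.003 (SE 0.17). Without APP/PS1 replicate 3 it was -0.22 (SE 0.08), with an unadjusted p of 0.0262 and a Benjamini-Hochberg adjusted p of 0.995 in edgeR's quasi-likelihood test. The part of the cerebellar transcripts in the Lama2 value was not tested.

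All 9 genes passed the filter on low counts. Among the 8 other than Dag1, 6 log2 fold changes were positive and 2 negative, from -0.17 to 0.21 with a median of 0.11, against a median of 0.01 over all 18060 genes tested. Without APP/PS1 replicate 3 their median was 0.02. In edgeR's quasi-likelihood test 0 of the 8 had an adjusted p under 0.05 and 0 an unadjusted p under 0.05. Such an unadjusted p was seen for 3.42% of all genes tested. At the adjusted threshold DESeq2, which called 0.145% of all genes, and limma-voom also called 0 of the 8. Over all genes edgeR called 1 (0.00554%), which was Dag1 itself, the gene chosen on this contrast, and 0 when WT replicate 1 or WT replicate 2 was left out. The genotypes did not overlap for 2 of the 8, Dtnb and Sgcb, where this held for 10.4% of all genes tested. APP/PS1 replicate 3 was the highest library for 4 of the 8 (Utrn, Dtna, Sgce and Lama2) and the lowest for 3 (Dmd, Dtnb and Sntb1). Levels are compared within a gene only, since transcript lengths were not used.

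**Figure D2:**
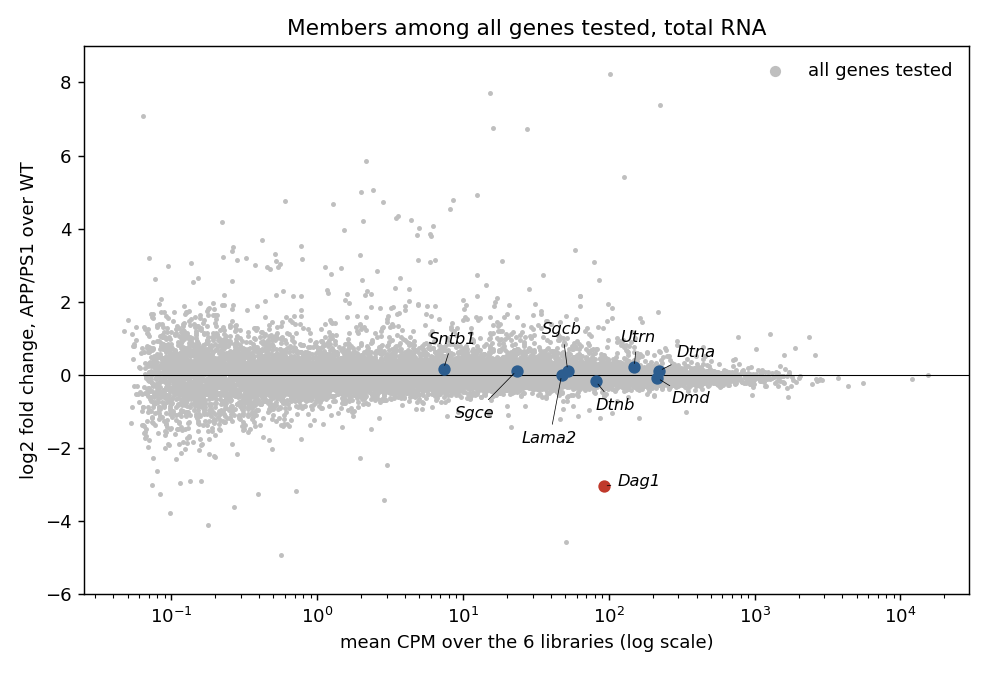
Log2 fold change (APP/PS1 over WT) against mean CPM over the 6 libraries on a log axis, grey for each of 18060 genes tested, with the 9 members marked. Dag1 lies at -3.04, and the other 8 lie between -0.17 and 0.21.

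Set against its partners within the same library, Dag1 was lower in every APP/PS1 mouse. For each Dmd count there were 0.80, 0.77 and 0.67 Dag1 counts in WT replicates 1, 2 and 4, and 0.11, 0.07 and 0.11 in APP/PS1 replicates 1, 2 and 3. For each Sgcb count there were 3.46, 3.19 and 3.19 in WT and 0.46, 0.28 and 0.36 in APP/PS1. These ratios use no scaling between libraries, and the gap between genotypes was present against each of the 8 partners. Dag1 was chosen for its low APP/PS1 values and the partners differed little. The gap in the ratios therefore restates that choice and is no separate observation. Within APP/PS1 the lowest Dag1 level in CPM was that of replicate 2. Replicate 3 had the lowest ratio to Utrn, Dtna and Lama2, and replicate 2 the lowest to the other 5 genes.

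**Figure D3:**
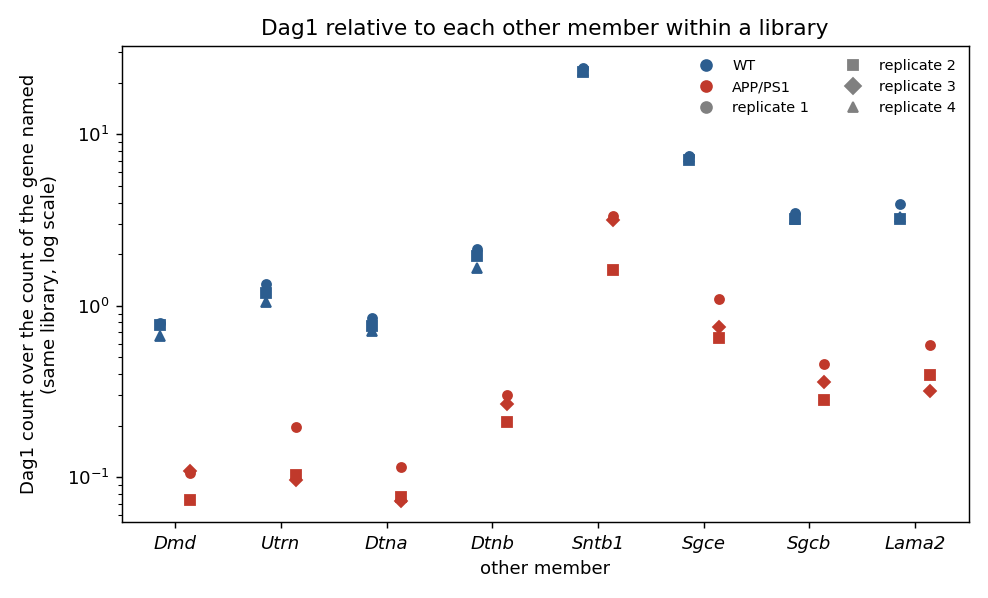
Dag1 counts divided by the counts of each other member in the same library (log axis, blue WT, red APP/PS1, marker shape gives the replicate number). Against each of the 8 genes the 3 APP/PS1 libraries lie below the 3 WT libraries, as for Dmd at 0.07 to 0.11 against 0.67 to 0.80. This gap follows from the choice of Dag1 for its low APP/PS1 values.

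Other genes of the dystroglycan pathway were taken from 7 lists chosen by known role, 75 genes in all, of which 75 were tested. In edgeR's quasi-likelihood test 0 of the 75 passed at an adjusted p under 0.05 in either direction, where 0.00554% of all genes tested passed. With so few calls over all genes, 0 of 75 does not set the pathway apart. DESeq2, which called 0.145% of all genes, and limma-voom, which called 1 of 18060, gave 0 of the 75 as well. At an unadjusted p under 0.05 edgeR gave 4 (1 higher, 3 lower), where 3.42% of all genes did so, and the genotypes did not overlap for 6, where 10.4% of all genes tested did not overlap. The median log2 fold change over the 75 was -0.001, against 0.01 over all genes.

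The 11 remaining subunits and partners of the dystrophin complex had a median log2 fold change of -0.11, with 4 positive and 7 negative, and a median of 0.005 without APP/PS1 replicate 3. Sgcz, encoding zeta-sarcoglycan, ranged from 1.38 to 2.32 CPM in the APP/PS1 libraries and from 2.22 to 2.91 CPM in the WT libraries, with a log2 fold change of -0.48 (SE 0.24), or -0.30 without APP/PS1 replicate 3. Sspn, encoding sarcospan, a membrane protein of the sarcoglycan subcomplex, had 0.58 (SE 0.31), or 0.37 without APP/PS1 replicate 3, its highest library at 7.82 CPM. The 17 other ligands of dystroglycan, laminins, agrin, perlecan, neurexins, pikachurin and slits, had a median of -0.02, or -0.01 without APP/PS1 replicate 3. Lamb1, the laminin beta 1 chain, stood at 60.7, 66.4 and 59.2 CPM in APP/PS1 and at 52.7, 53.7 and 55.5 CPM in WT, a log2 fold change of 0.20 (SE 0.08, unadjusted p = 0.036 and adjusted p = 0.887 with edgeR). Lama5, the laminin alpha 5 chain, had 0.17 (SE 0.11).

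Enzymes that build the laminin-binding sugar of dystroglycan had a median log2 fold change of 0.08 over 19 genes, 14 positive and 5 negative. B3galnt2, which extends the core of the chain, had 0.36 (SE 0.17), or 0.18 without APP/PS1 replicate 3.

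Other laminin receptors, mainly integrins, had a median of 0.10 over 9 genes, or 0.03 without APP/PS1 replicate 3. Itgb4, integrin beta 4, had a log2 fold change of -0.34 (SE 0.14, unadjusted p = 0.0447 and adjusted p = 0.887 with edgeR), and Itga7, integrin alpha 7, 0.44 (SE 0.24), or 0.17 without that library. Genes of the astrocyte endfoot had a median of -0.09 over 5 genes, or -0.13 without APP/PS1 replicate 3. Aqp4, the water channel held there by the complex, was at 142, 133 and 212 CPM in APP/PS1 and at 168, 135 and 141 CPM in WT, with overlap. Its log2 fold change was 0.13 (SE 0.19), or -0.11 without APP/PS1 replicate 3, its highest library. Hepacam, an adhesion protein of the endfoot, stood at 84.1, 90.0 and 92.0 CPM in APP/PS1 and at 107, 102 and 98.5 CPM in WT, a log2 fold change of -0.21 (SE 0.08, unadjusted p = 0.0314 and adjusted p = 0.887 with edgeR). Mlc1, its membrane partner, had -0.09 (SE 0.08).

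Partners at the inhibitory synapse had a median of -0.07 over 8 genes, or -0.03 without APP/PS1 replicate 3. Nlgn2, the neuroligin of that synapse, had a log2 fold change of -0.12 (SE 0.07) without overlap, and Gabra2, a GABA-A receptor subunit, -0.43 (SE 0.37), or -0.23 without that library, with wide spread in APP/PS1, 77.6 to 200 CPM. Proteases of beta-dystroglycan and their inhibitors had a median of -0.07 over 6 genes. Mmp14, a membrane metalloprotease, had 0.26 (SE 0.12), and Timp2, a metalloprotease inhibitor, -0.30 (SE 0.23), or -0.07 without APP/PS1 replicate 3.

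**Figure D4:**
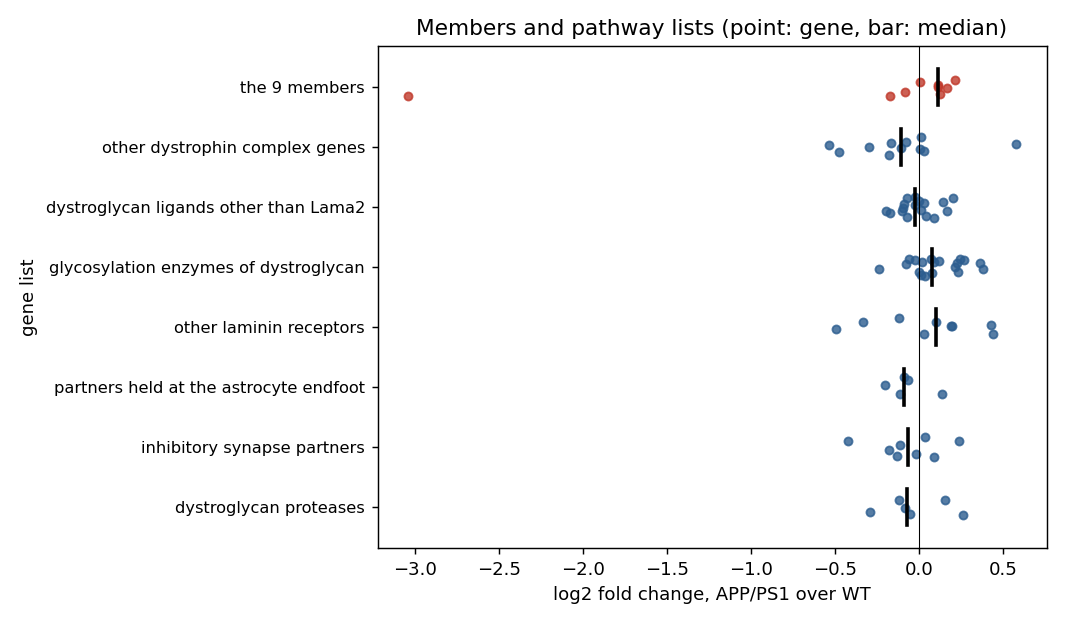
Log2 fold change (APP/PS1 over WT) of the 9 members and of the genes of 7 pathway lists, each point 1 gene and each bar the median of its list (vertical scatter has no meaning). Points of the 7 lists lie between -0.54 and 0.58, and Dag1 at -3.04 lies outside that range.

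Genes beside Dag1 on chromosome 9 were taken from the annotation, without regard to their values. No other gene of the RefSeq annotation overlaps Dag1 on either strand. Among the 5 nearest tested genes on each side, log2 fold changes ran from -0.02 to 0.58. In edgeR's test 0 of these 10 genes had an adjusted or an unadjusted p under 0.05. Of all genes tested, 0.00554% had such an adjusted p and 3.42% such an unadjusted p, so 0 of 10 does not set these genes apart. Bsn, encoding the presynaptic scaffold bassoon and ending 14.4 kb from Dag1, was at 1632, 1300 and 1303 CPM in APP/PS1 and at 1596, 1344 and 1368 CPM in WT. Nicn1, encoding nicolin 1 and lying 26.5 kb away on the other side, was at 68.6, 61.5 and 56.8 CPM in APP/PS1 and at 63.0, 62.3 and 61.5 CPM in WT. Both neighbours overlapped between genotypes, with log2 fold changes of -0.02 (SE 0.13) and 0.00 (SE 0.09). Further on the same side, Amt had 0.07 (SE 0.19), Tcta 0.19 (SE 0.09) and Rhoa, a small GTPase of the cytoskeleton, 0.004 (SE 0.08). Gpx1, a glutathione peroxidase, was at 4.83 CPM in WT replicate 1 and at 16.9 to 20.1 CPM in the other 5 libraries. On the side of Bsn, the highest library was APP/PS1 replicate 3 for Rnf123, Mst1, Apeh and 4930447F24Rik, whose log2 fold changes were 0.40 (SE 0.23), 0.37 (SE 0.32), 0.37 (SE 0.16) and 0.58 (SE 0.44). Without that library these 4 values were 0.06, 0.12, 0.19 and -0.13, and that of Amt was -0.18. Genotypes did not overlap for 3 of the 10, Rnf123, Apeh and Tcta, where this held for 10.4% of all genes tested.

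**Figure D5:**
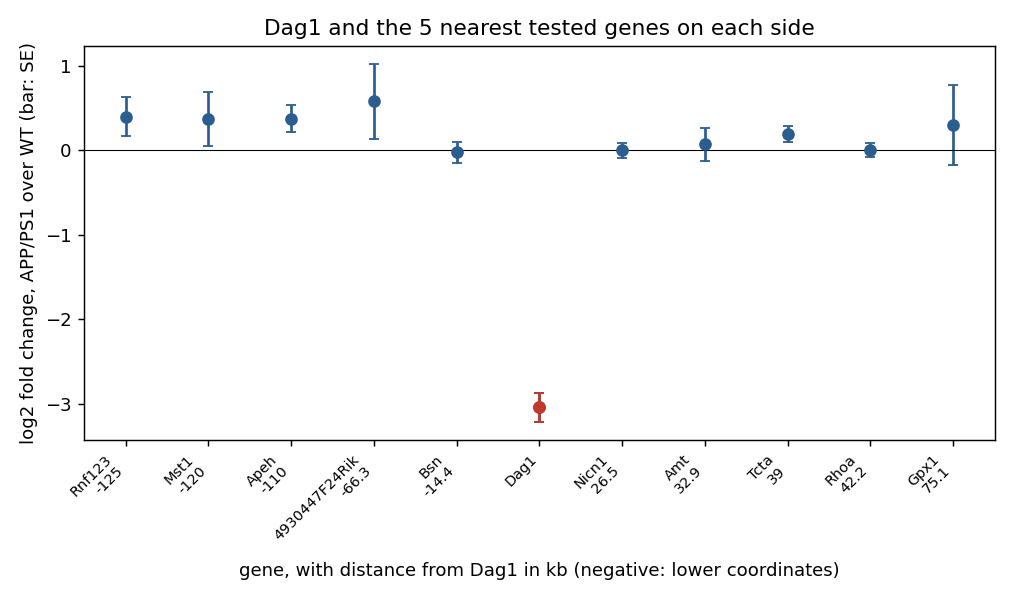
Log2 fold change (APP/PS1 over WT, bars give SE) of Dag1 and of the 5 nearest tested genes on each side, with the distance from Dag1 in kb under each name (genes evenly spaced, not to distance). Dag1 lies at -3.04, and the 10 neighbours lie between -0.02 and 0.58.

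Likeness to Dag1 was measured by Pearson's r of log2 CPM over the 6 libraries, among 14625 other genes with a mean of at least 1 CPM, and is given as a description. The 5 most alike were Pcdha1 (r = 0.984), Pym1 (r = 0.980), Brf1 (r = 0.968), Slc22a23 (r = 0.967) and Farp1 (r = 0.965). Since the values of Dag1 split by genotype, choosing genes for their likeness to it favours genes that split the same way, so their lower APP/PS1 values are no separate observation. Their log2 fold changes were -0.69 (SE 0.16), -0.14 (SE 0.08), -0.17 (SE 0.07), -0.11 (SE 0.07) and -0.23 (SE 0.07). Pcdha1, a clustered protocadherin whose gene shares exons with its neighbours and whose counts are therefore uncertain, ranged from 2.04 to 2.52 CPM in the APP/PS1 libraries and from 3.44 to 3.68 CPM in the WT libraries. Among the members the nearest to Dag1 was Dtnb (r = 0.728, 544th of 14625) and the least alike was Sgcb (r = -0.919).

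The small RNA columns hold a measurement that the choice of genes did not use. A list of 7 miRNAs reported to act on dystrophin (miR-31-5p) or utrophin (let-7c-5p, miR-150-5p, miR-196b-5p, miR-296-5p, miR-133b-3p and miR-206-3p) was examined, and 6 of them passed the filter on low counts. The mature sequences below are those from RefSeq (GRCm38.p6) of the 5 tested miRNAs with an entry, 5′ to 3′, with the seed, bases 2 to 8, in capitals. No 2 of them share a seed.
miR-31-5p: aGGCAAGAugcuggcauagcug
let-7c-5p: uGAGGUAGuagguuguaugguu
miR-296-5p: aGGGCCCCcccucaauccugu
miR-133b-3p: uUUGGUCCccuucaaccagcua
miR-206-3p: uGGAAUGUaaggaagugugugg
Over all 703 miRNAs tested edgeR called 0 (0%) at an adjusted p under 0.05, with 25 at an unadjusted p under 0.05, and DESeq2 called 0. Of the 6 listed, 0 passed and 1, miR-206-3p, had an unadjusted p under 0.05. The genotypes overlapped for all 6, where 7.11% of all miRNAs tested did not overlap. The seventh, miR-196b-5p, was too low to test.

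MiR-31-5p, from chr4:88910614-88910635 on the minus strand, was at 65.3, 58.1 and 39.6 CPM in the columns headed APP1, APP2 and APP3 and at 74.3, 45.9 and 45.1 CPM in those headed WT1, WT2 and WT4. Its log2 fold change was -0.02 (SE 0.27, adjusted p = 0.989 with edgeR). Let-7c-5p, an abundant miRNA of differentiated cells, averaged 32999 ± 4641 CPM in the APP/PS1 columns and 28894 ± 470 CPM in the WT columns (SD, n = 3 each). Its log2 fold change was 0.19 (SE 0.16). MiR-150-5p had -0.10 (SE 0.16) and miR-296-5p -0.30 (SE 0.29). MiR-206-3p, best known from muscle, was at 643 CPM in the column headed APP3 and at 3.09 to 6.54 CPM in the other 5. MiR-133b-3p, from the same stretch of chromosome 1, was at 19.3 CPM in that column and at 2.20 to 3.54 CPM in the others. Without the column headed APP3 their log2 fold changes were -0.08 and -0.11, against 5.40 (SE 1.81) and 1.52 (SE 0.76) with it. This column bears the same heading as the total RNA library of APP/PS1 replicate 3, in which cerebellar markers and Utrn were highest. Nothing else in the labels says whether both came from 1 mouse.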

How the data were processed

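Total RNA was sequenced from the hippocampus of 6 mice, 3 per genotype, and small RNA gave 6 columns, 3 per genotype. The authors deposited estimated counts for total RNA, whole numbers by gene symbol, which were used without rounding. For small RNA the authors deposited unnormalized counts by mature miRNA. Per the submitters' processing notes, HISAT2, StringTie and DESeq were used on mm10. The sources used here do not give versions, roles, annotation, filters or the strand setting. Among low values of total RNA, the value 4 occurred 1817 times and 3 occurred 897 times, so 1 fragment may stand for about 4 estimated counts and the depth in fragments is uncertain. Library sums ran from 120958765 to 146904552 estimated counts for total RNA, and small RNA columns from 15593728 to 21631169 counts. The spread between 3 mice, more than counting error, limits the precision.

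Genotypes were compared with edgeR 4.0.16 (R 4.3.3, quasi-likelihood test, TMM, filterByExpr defaults, Benjamini-Hochberg adjustment over all 18060 genes or 703 miRNAs, threshold 0.05). SE is derived from the fold change and the F statistic. The procedure was also run on simulated counts with known changes added. Those counts had no library set apart like APP/PS1 replicate 3. The outcome is not given here, so that run is no support for the counts reported. Alternatives were RLE size factors, library totals, other filters, DESeq2 1.42.0, limma-voom (limma 3.58.1), counts divided by 4, a block for the replicate number, and leave-one-out over libraries. The members and lists were chosen with earlier results of these data known. The rule for named genes took all 9 members, the 2 genes with the smallest p of each list, the 5 neighbours per side and the 5 genes most like Dag1. Aqp4 was added after its values were seen. Some genes that the rule took are left out here. Coordinates and sequences are from RefSeq, GRCm38.p6, the build mm10. Small RNA columns are headed like the total RNA libraries, so they were assigned to a genotype only.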

Additional observations from a re-analysis of the deposited data

How the results depend on the processing

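Over 14 alternatives Dag1 kept a log2 fold change of -3.22 to -2.91. The count of members past edgeR's adjusted threshold ranged from 0 to 1 with 1 library left out, and was 0 when either WT replicate 1 or WT replicate 2 was left out. The member that passed was Dag1 each time. It was chosen on this contrast, so these counts lend it no support. Over all genes the count of 1 became 26 with DESeq2 and 2 with the replicate block, and 0 to 6 with 1 library left out: leaving out WT replicate 1 or 2 gave 0 (371 and 345 genes had an unadjusted p under 0.05), APP/PS1 replicate 1 gave 6, APP/PS1 replicate 3 gave 5 and WT replicate 4 gave 4. The cause was not tested. None of the other 8 members passed in any alternative. At an unadjusted p under 0.05, Utrn did so without APP/PS1 replicate 1 and Lama2 without APP/PS1 replicate 3. Lama2 changed sign in 8 of the 14 alternatives, Dmd in 2, and Dtna and Sntb1 in 1 each. Pathway genes past the threshold stayed at 0 in all 14. Over all miRNAs the count of 0 became 5 without a count filter and 0 to 3 with 1 column left out (3 without the column headed APP1), and miR-206-3p was the 1 listed miRNA called without the filter, with 643 CPM in a single column. The count of listed miRNAs past the threshold was 0 with any 1 column left out.

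Only numbers 1 and 2 occur in both genotypes, so the replicate block rests on those 4 libraries. Deviations from the group means correlated at 0.088 for number 1 and -0.044 for number 2 in total RNA, and at 0.21 and 0.24 in the small RNA columns. Nothing in the labels pairs the mice. With the block the count over all genes was 2 and that of members 1, the log2 fold change of Dag1, which was chosen on this contrast and is not tested, was -3.09, and the test passed 0 of 75 pathway genes, 0 of 703 miRNAs and 0 of 6 listed miRNAs.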
